A study of Mus musculus with 12 samples.

Results

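Axon guidance ligands and receptors were examined in astrocytes and other cells of the mouse spinal cord at postnatal day 7. The genes were those of the semaphorin, plexin, neuropilin, ephrin, Slit, Robo, netrin, Unc5, Dcc, neogenin, repulsive guidance molecule, Lingo, FLRT, Dpysl, srGAP and Ryk families that have an entry in the authors' deposited table of astrocytes against non-astrocytes, chosen by a pattern on the gene name, with Sema3a left out. This gave 42 genes of the 4570 gene names in that table, on 43 probe sets, since Srgap3 had 2. The 42 comprised 12 semaphorins, 5 plexins and neuropilins, 1 ephrin, 5 genes of the netrin and repulsive guidance pathway, 6 of the Slit and Robo pathway, 4 FLRT and Lingo genes, 4 Dpysl genes, Ryk, and 4 Slitrk genes, which the pattern takes only because their names begin like Slit. No netrin had an entry (0 genes). Members of these families without an entry were not analysed here.

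The cells came from mice that all carried the Aldh1l1-GFP transgene on a Swiss-Webster background, in which green fluorescent protein is driven by the promoter of the astrocyte gene Aldh1l1. Dorsal and ventral cord were dissociated with papain and sorted by flow cytometry. The 4 groups were GFP-positive astrocytes of the dorsal cord, GFP-positive astrocytes of the ventral cord, and the GFP-negative cells of each, called non-astrocytes, with 3 biological replicates per group and 1 array per replicate. The labels do not say how many animals made up a replicate. The non-astrocytes are all remaining cells together, so that in this group, as in any bulk sample, fewer cells of a type and less RNA per cell cannot be told apart.

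Guidance ligands steer growing axons by attraction or repulsion and act on receptors of the growth cone, which change the cytoskeleton through small GTPases and microtubule proteins. Semaphorins act on plexins, with neuropilins as co-receptors for the secreted class. Netrins act on Dcc and Unc5 receptors, Slits on Robo receptors, and ephrins on Eph receptors. Many of these molecules stay in use after axons have been laid down, on glia as well as on neurons, in cell migration, myelination and synapse formation.

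The deposited values are log2 signals that the authors had normalised over all arrays. The array medians lay between 6.57 and 6.62, and precision is limited by having 3 arrays in a group. Levels can be compared between arrays for 1 gene but not between genes. The 6 measured astrocyte markers were all higher in the GFP-positive sort, with a median log2 difference of 4.09. The 8 measured oligodendrocyte markers, 7 precursor markers and 7 microglia markers were all lower there, with medians of -2.56, -1.23 and -2.33. Of 7 measured neuron markers, 5 were lower and 2, Nefl and Nefm, were higher. Array signals have a floor above 0, so the sums that follow do not give the share of a cell type. The summed linear signal of the oligodendrocyte markers was 4175 to 6369 in astrocytes against 16437 to 22488 in non-astrocytes, that of the precursor markers 1633 to 2314 against 5111 to 7052, and that of the neuron markers 1398 to 2587 against 2632 to 3338. The part of these cells in the differences between sorts was not tested.

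The first comparison set astrocytes against non-astrocytes. The authors' table was filtered on this very comparison, with adjusted p-values up to 0.150, so each gene had to differ in order to be included, and its values are a description with no test. The gene nearest to that limit was Srgap2, at an adjusted p of 0.150 and a ratio of 0.75 in the authors' deposited table. In the limma fit over all 28467 probe sets, 36.2% passed an adjusted p of 0.05, and so did all 42 genes. Among them 16 were higher in astrocytes and 26 lower, or 61.9% lower, where 52.2% of all named probe sets were lower. At least 2-fold differences were found for 8 of the higher and 11 of the lower genes, and the share of all probe sets beyond 2-fold was not computed. The median absolute log2 difference was 0.90 over the 42 genes, 0.73 over the named probe sets and 0.16 over all. In 38 of the 42 all 6 astrocyte arrays lay on one side of all 6 non-astrocyte arrays, a separation found in 22.3% of all probe sets and 85.7% of the named ones. The 4 genes with overlapping arrays were Sema4f, Srgap2, Slit2 and Slitrk1. Semaphorins, plexins, FLRT and srGAP genes each had members on both sides, as the map of values by array shows, while both Robo genes were higher in astrocytes and both Unc5 genes lower.

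**Figure D1:**
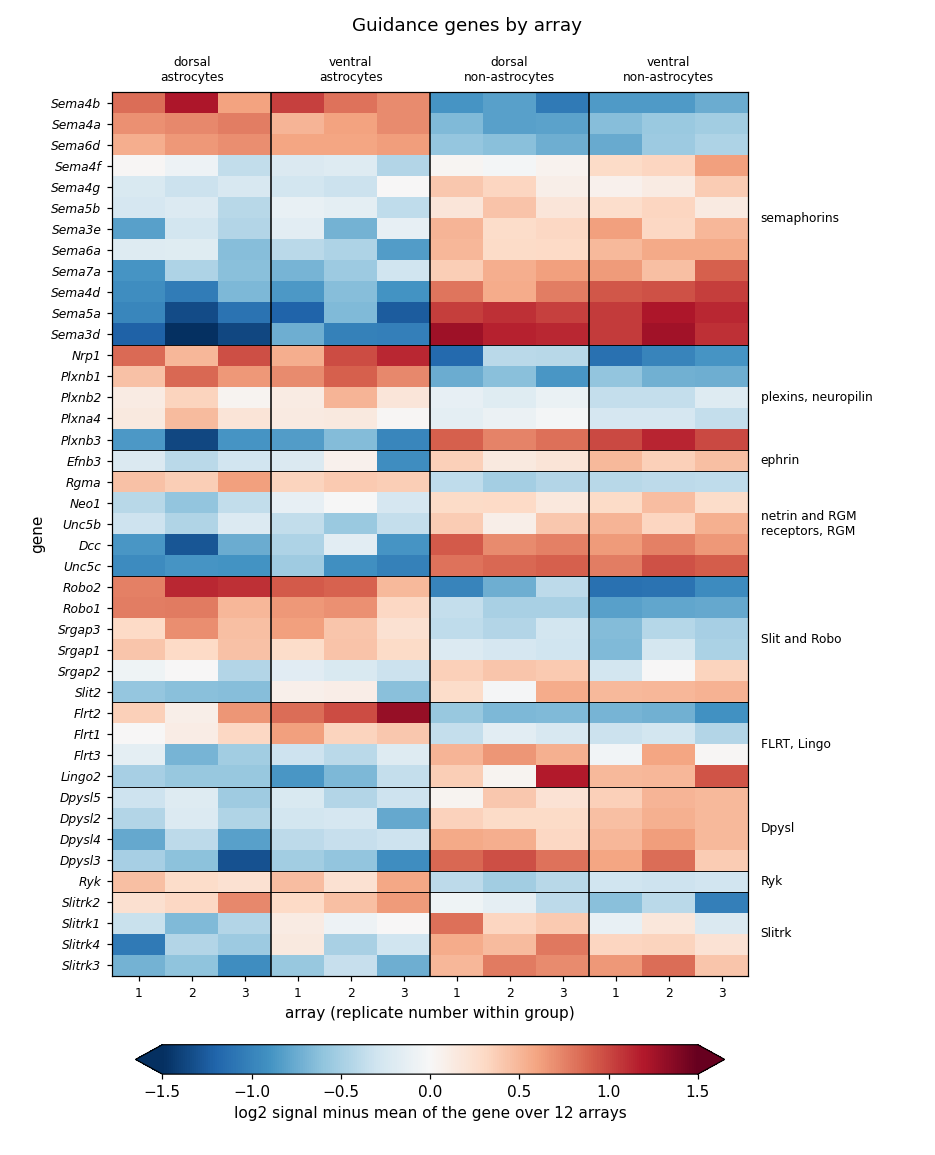
Each row is a gene, the Slitrk genes included, and each column an array, with the replicate number below and the group above. Colour gives the log2 signal minus the mean of that gene over the 12 arrays, and values beyond 1.5 in either direction take the end colour. Of the 42 genes, 16 were higher in the 6 astrocyte arrays on the left and 26 in the 6 non-astrocyte arrays on the right.

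Of the 12 semaphorins, 3 were higher in astrocytes and 9 lower. The secreted semaphorin gene Sema3d had log2 signals of 5.97, 5.57 and 5.82 in dorsal astrocytes and 6.45, 6.18 and 6.17 in ventral astrocytes. In non-astrocytes it stood at 8.46, 8.35 and 8.32 dorsally and at 8.24, 8.44 and 8.28 ventrally. All astrocyte arrays were thus below all non-astrocyte arrays, and the 3 dorsal astrocyte arrays were the lowest of the 12. The log2 difference of astrocytes minus non-astrocytes was -2.32 (SE 0.08), a 5.0-fold lower signal. The astrocyte mean of Sema3d lay under the array medians, where the size of a fold is less certain. The same held for 9 other genes, Sema3e, Sema4f, Sema4g, Unc5b, Dcc, Slit2, Lingo2, Slitrk1 and Slitrk4.

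Sema5a, a transmembrane semaphorin with thrombospondin repeats, ranged from 7.64 over a median of 7.82 to 8.32 in astrocytes, and in non-astrocytes its median was 10.05 and its highest value 10.19. The sorts were far apart, with a 4.53-fold lower signal in astrocytes (log2 difference -2.18, SE 0.10). Sema4d, a transmembrane semaphorin that binds plexin-B1 and is known from oligodendrocytes as well as immune cells, ranged from 7.65 to 8.06 in astrocytes and from 9.25 to 9.74 in non-astrocytes. It was 3.20-fold lower in astrocytes (log2 difference -1.68, SE 0.08). Sema7a, which is tethered to the membrane by a lipid anchor, followed with -1.17 (SE 0.10), then Sema6a with -0.91 (SE 0.10) and the secreted Sema3e with -0.84 (SE 0.12). Sema5b, Sema4g and Sema4f differed least, at -0.51 (SE 0.08), -0.46 (SE 0.08) and -0.42 (SE 0.09).

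The 3 semaphorins higher in astrocytes, among the 12 examined without Sema3a, were all transmembrane, as were Sema5a and Sema4d on the lower side. Sema4b stood at 8.33, 8.71 and 8.09 in dorsal and at 8.52, 8.3 and 8.20 in ventral astrocytes, against 6.44 to 6.75 in non-astrocytes. Its signal was 3.33-fold higher in astrocytes (log2 difference 1.73, SE 0.10). Sema4a ranged from 8.09 to 8.34 in astrocytes and from 6.76 to 7.05 in non-astrocytes, a log2 difference of 1.33 (SE 0.06). Sema6d, a ligand of class A plexins, ranged from 11.38 to 11.54 and from 10.08 to 10.37, a log2 difference of 1.23 (SE 0.07). The spread of Sema6d over the 6 astrocyte arrays was small (SD 0.06).

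Plexins and neuropilin ran the other way, with 4 of 5 higher in astrocytes. Nrp1, the co-receptor for secreted semaphorins that also binds VEGF, had log2 signals of 8.49, 8.15 and 8.62 in dorsal astrocytes and of 8.19, 8.63 and 8.78 in ventral astrocytes. In dorsal non-astrocytes it read 6.48, 7.24 and 7.23 and in ventral non-astrocytes 6.53, 6.66 and 6.76. The sorts did not overlap, although 2 of the dorsal non-astrocyte arrays were higher than the remaining 4. The signal was 3.16-fold higher in astrocytes (log2 difference 1.66, SE 0.15). Plxnb1 encodes the receptor of Sema4d, and it ranged from 8.76 over 9.03 to 9.21 in astrocytes and from 7.44 over 7.59 to 7.72 in non-astrocytes. It was 2.70-fold higher in astrocytes (log2 difference 1.43, SE 0.08). The other two, Plxnb2 at 0.44 (SE 0.08) and Plxna4 at 0.37 (SE 0.07), were separated by less than 1.5-fold.

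Plxnb3, whose product is a receptor for Sema5a, was the lone plexin below 0. It read 7.45, 6.94 and 7.42 in dorsal and 7.48, 7.66 and 7.34 in ventral astrocytes, against 9.21, 9.06 and 9.14 in dorsal and 9.30, 9.46 and 9.30 in ventral non-astrocytes. Its signal was 3.63-fold lower in astrocytes (log2 difference -1.86, SE 0.09). Plxnb1 and Plxnb3, close relatives, were therefore high in opposite sorts, while their ligands Sema4d and Sema5a were both higher in the non-astrocytes.

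The promoters of this pair are shown because 2 close relatives lay far apart between the sorts. Each line gives 250 bases upstream of the RefSeq start, on the strand of the gene, from the GRCm38.p6 table, with motif matches in capitals. Plxnb1 lies at chr9:109095186-109095435 (+) and Plxnb3 at chrX:73756853-73757102 (+). In both cases the annotated gene begins before the window shown.
Plxnb1: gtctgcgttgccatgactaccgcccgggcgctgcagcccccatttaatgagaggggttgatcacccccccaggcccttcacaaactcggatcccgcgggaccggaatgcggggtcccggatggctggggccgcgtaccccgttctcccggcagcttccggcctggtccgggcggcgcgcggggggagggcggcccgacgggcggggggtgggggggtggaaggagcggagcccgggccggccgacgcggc
Plxnb3: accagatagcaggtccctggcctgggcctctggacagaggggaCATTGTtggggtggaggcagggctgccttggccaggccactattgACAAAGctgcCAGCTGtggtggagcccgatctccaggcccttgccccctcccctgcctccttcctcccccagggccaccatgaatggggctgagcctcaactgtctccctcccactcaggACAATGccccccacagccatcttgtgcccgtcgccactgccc

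The motifs searched on both strands were ACAAAG and ACAATG, cores bound by SOX factors, CAGCTG, an E-box, and the palindrome of nuclear factor I. No match overlapped another. Plxnb3 held 3 matches to the SOX cores and 1 E-box, and Plxnb1 held 0 of any. Of 32851 RefSeq promoters, 25.2% held a SOX core, 4271 promoters the E-box and 0.703% the palindrome. At least 3 matches to the SOX cores, a number looked up after the match in Plxnb3 was seen, occurred in 0.493%. A match is a description of letters, and binding was not measured.

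The ephrins were represented by Efnb3 alone, a membrane-bound ligand known from the midline of the cord. It read 7.86, 7.67 and 7.78 in dorsal astrocytes, 7.85, 8.14 and 7.14 in ventral astrocytes, 8.43, 8.21 and 8.27 in dorsal non-astrocytes and 8.56, 8.43 and 8.52 in ventral non-astrocytes. Astrocytes were lower without overlap, by -0.66 (SE 0.13), and the third ventral astrocyte array was the lowest of all.

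Of the netrin and repulsive guidance genes, 4 of 5 were lower in astrocytes, and all 4 were receptors. Unc5c, a netrin receptor of repulsion, ranged from 6.75 over 6.86 to 7.23 in astrocytes and from 8.53 over 8.64 to 8.73 in non-astrocytes, a 3.33-fold lower signal (log2 difference -1.73, SE 0.08). Dcc, the netrin receptor of attraction, stood at 6.43, 6.02 and 6.56 in dorsal and at 6.84, 7.14 and 6.41 in ventral astrocytes. All 6 of its non-astrocyte arrays lay between 7.94 and 8.22, clear of the astrocytes, and the log2 difference was -1.47 (SE 0.12). Unc5b, a relative of Unc5c, was lower by -0.75 (SE 0.08), with all astrocyte arrays under the array medians. Neo1 encodes neogenin, the receptor of repulsive guidance molecules, and differed least, at -0.59 (SE 0.07).

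The lone ligand in this group, Rgma, went the other way. It read 8.18, 8.12 and 8.35 in dorsal and 8.08, 8.13 and 8.11 in ventral astrocytes, against 7.23 to 7.36 in non-astrocytes. The difference of 0.84 (SE 0.06) was far larger than the spread within either sort (SD 0.10 and 0.05). For repulsive guidance the ligand was thus higher in astrocytes and its receptor in non-astrocytes, the reverse of Sema4d and Plxnb1.

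In the Slit and Robo pathway both receptors were higher in astrocytes and the ligand was lower. Robo2 ranged from 8.55 over 8.96 to 9.19 in astrocytes and from 6.94 over 7.09 to 7.67 in non-astrocytes, with a 3.38-fold higher signal in astrocytes (log2 difference 1.76, SE 0.11). Robo1 ranged from 9.27 over 9.62 to 9.73 and from 8.14 over 8.33 to 8.59, with a log2 difference of 1.23 (SE 0.08). Slit2, the secreted repellent, read 6.08, 6.03 and 6.02 in dorsal and 6.74, 6.76 and 6.03 in ventral astrocytes. In non-astrocytes Slit2 was at 6.94, 6.64 and 7.22 dorsally and at 7.15, 7.16 and 7.19 ventrally. The sorts touched, since 2 ventral astrocyte arrays reached the lowest dorsal non-astrocyte array, and the log2 difference was -0.77 (SE 0.13).

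The srGAP proteins bind Robo receptors and act downstream of them. Srgap3 stood at 9.61 to 10.09 in astrocytes and at 8.74 to 9.12 in non-astrocytes (log2 difference 0.90, SE 0.09). Its second probe set gave 0.86 (SE 0.07). Srgap1 was higher in astrocytes by 0.72 (SE 0.07) and Srgap2 lower by -0.41 (SE 0.10), with overlapping arrays.

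**Figure D2:**
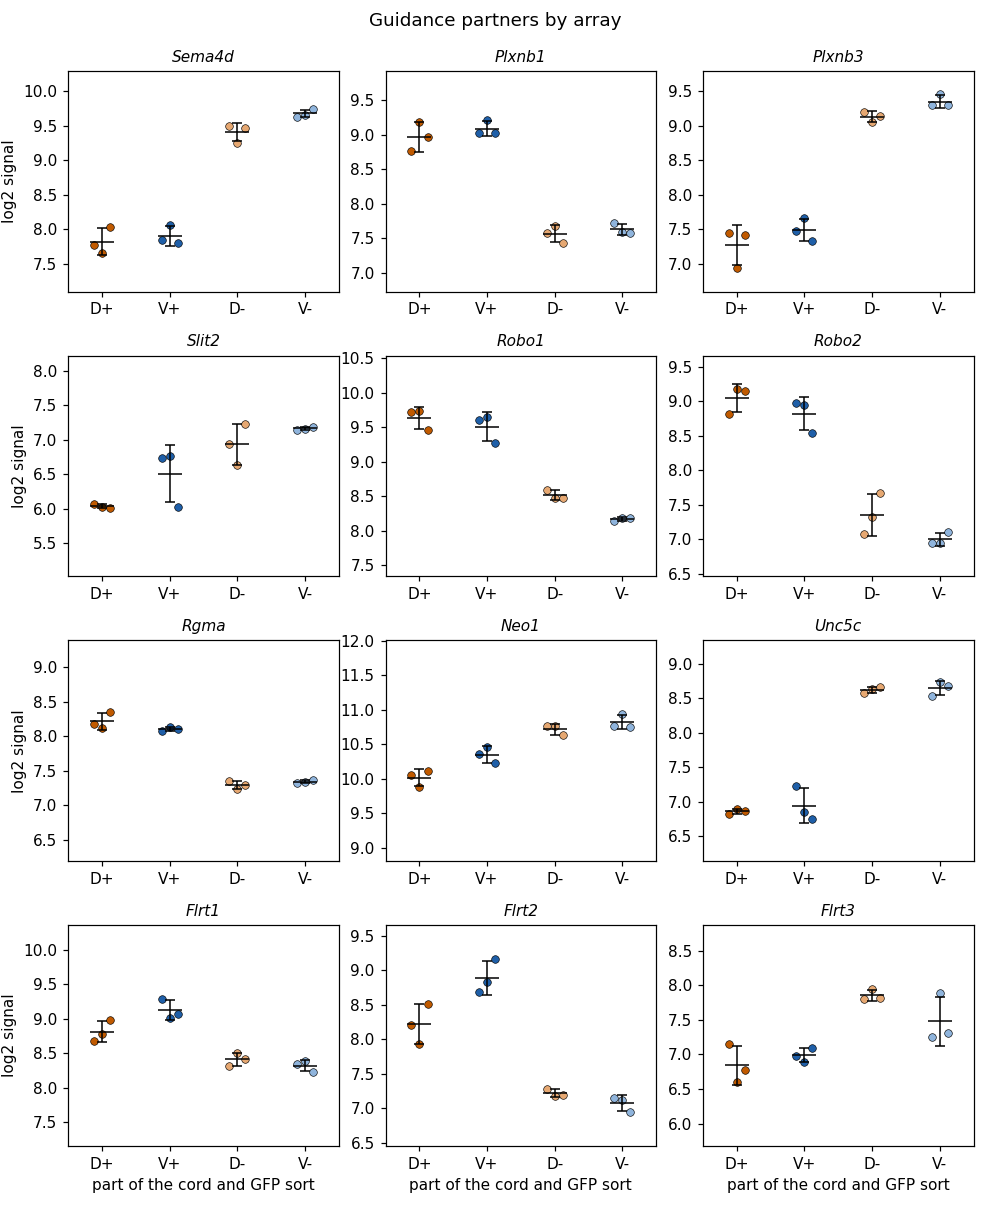
Each panel shows the log2 signal of a gene in dorsal (D) and ventral (V) astrocytes (+) and non-astrocytes (-); points are arrays, the long bar is the mean and the whiskers are the SD over 3 arrays, and every panel spans 3.2 log2 units. Robo1, Robo2, Plxnb1 and Rgma sit higher in both astrocyte groups, Sema4d, Plxnb3 and Unc5c in both non-astrocyte groups, and Flrt2 rises further in ventral astrocytes, to a mean of 8.89 against 8.22 dorsally.

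FLRT proteins carry leucine-rich repeats and bind Unc5 receptors and latrophilins. Flrt2 stood at 8.21, 7.93 and 8.52 in dorsal astrocytes and at 8.68, 8.83 and 9.16 in ventral astrocytes, against 7.28, 7.18 and 7.19 in dorsal and 7.15, 7.12 and 6.95 in ventral non-astrocytes. Its astrocyte arrays were all higher, with the ventral ones at the top, and the log2 difference between the sorts was 1.41 (SE 0.10). Flrt1 read 8.68, 8.78 and 8.98 in dorsal and 9.28, 9.0 and 9.07 in ventral astrocytes, against 8.23 to 8.5 in non-astrocytes, a log2 difference of 0.60 (SE 0.08). Flrt3 was lower in astrocytes, at 6.60 to 7.15 against 7.25 to 7.95 (log2 difference -0.75, SE 0.12). Lingo2, of a family with leucine-rich and immunoglobulin repeats, was lower by -1.17 (SE 0.17). Its astrocyte arrays, at 5.29 to 5.8, lay under the array medians.

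Flrt2 and Flrt3 were again paralogs high in opposite sorts, and their upstream bases are shown for this reason. Flrt2 lies at chr12:95691976-95692225 (+), where the annotated gene begins inside the window, and Flrt3 at chr2:140671477-140671726 (-). Capitals mark the same motifs as above.
Flrt2: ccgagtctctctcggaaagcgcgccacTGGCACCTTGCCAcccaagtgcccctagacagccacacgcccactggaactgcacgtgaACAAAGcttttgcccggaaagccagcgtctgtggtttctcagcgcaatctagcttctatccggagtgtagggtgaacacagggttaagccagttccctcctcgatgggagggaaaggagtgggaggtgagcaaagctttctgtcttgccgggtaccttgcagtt
Flrt3: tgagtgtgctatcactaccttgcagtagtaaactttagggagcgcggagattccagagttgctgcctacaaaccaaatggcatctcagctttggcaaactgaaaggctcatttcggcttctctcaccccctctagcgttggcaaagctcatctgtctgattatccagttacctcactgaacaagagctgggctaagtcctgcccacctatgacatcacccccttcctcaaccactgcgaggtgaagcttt
Flrt2 held 1 nuclear factor I palindrome, as 231 of the 32851 promoters did, and 1 SOX core, and Flrt3 held 0 of the motifs.

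All 4 Dpysl genes, which encode collapsin response mediators that bind tubulin in growing axons, were lower in astrocytes without overlap. Dpysl3 was at 7.64, 7.52 and 6.82 in dorsal and at 7.61, 7.54 and 7.20 in ventral astrocytes, and between 8.51 and 9.10 in non-astrocytes (log2 difference -1.49, SE 0.14). Dpysl4 followed at -1.01 (SE 0.08), Dpysl2 at -0.79 (SE 0.09) and Dpysl5 at -0.67 (SE 0.08). These genes are known from young neurons, and 5 of the 7 measured neuron markers were also lower in astrocytes (median over the 7 of -1.15), while Nefl and Nefm were higher. All measured oligodendrocyte, precursor and microglia markers were lower too. The part of any cell type in the Dpysl values was not tested.

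Ryk, a Wnt receptor that mediates repulsion of descending axons, was higher in astrocytes at 8.83, 8.65 and 8.61 dorsally and 8.84, 8.61 and 8.96 ventrally, against 7.85 to 8.09 in non-astrocytes (log2 difference 0.74, SE 0.07). Of the Slitrk genes, which encode transmembrane proteins of synaptic adhesion and are not Slits, Slitrk2 was higher in astrocytes by 0.89 (SE 0.12). Slitrk3 (-1.30, SE 0.10), Slitrk4 (-0.90, SE 0.12) and Slitrk1 (-0.46, SE 0.10) were lower.

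The sort differences had the same sign in dorsal and ventral cord for 41 of the 42 genes. The genes were listed for their difference over both parts together, so this agreement largely follows from the listing. It is a description, and its share over all probe sets was not computed. The exception was Slitrk1, with -0.99 (95% interval -1.30 to -0.67) in the dorsal and 0.07 (-0.24 to 0.38) in the ventral part. Plxnb3 gave nearly the same value in either part, -1.86, and Sema5a gave -2.19 and -2.17. Flrt2 was less even, at 1.00 dorsally and 1.82 ventrally.

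**Figure D3:**
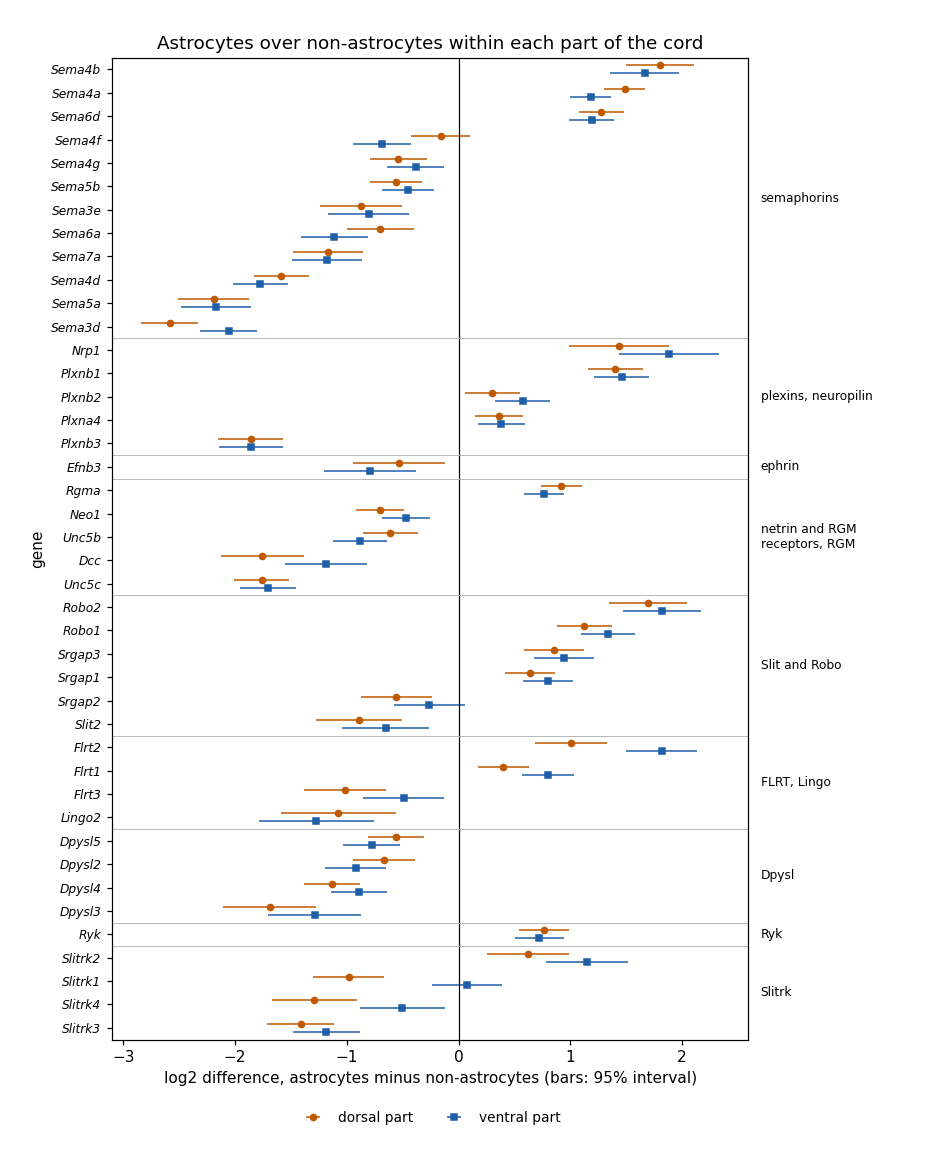
Points give the log2 difference of astrocytes minus non-astrocytes for each gene, the Slitrk genes included, within the dorsal (circles) and the ventral part (squares). Bars are 95% intervals of the limma fit. The values lie on the same side of 0 in both parts for 41 of 42 genes, and Slitrk1 is the exception. The genes were listed for this difference over both parts together, so the agreement is a description.

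The second comparison asked whether these genes mark the position of astrocytes. The authors' table that supplied the genes was not filtered on this comparison. Named probe sets pass it more often than all probe sets do, so both shares are given. The named ones include the 39 entries of the authors' other table, which lists dorsal against ventral astrocytes. Their share is thus not free of that listing. In limma, 0 of 42 genes differed between dorsal and ventral astrocytes at an adjusted p of 0.05, where 0.341% of all probe sets and 1.21% of the named ones passed. At an unadjusted p under 0.05 there were 9 genes (21.4%), against 10.4% of all probe sets and 15.0% of the named ones. All 9 were lower dorsally, as were 5.94% of all probe sets at that p and 7.74% of the named ones. Of the 9, 2 were Slitrk genes, taken by spelling alone. The median log2 difference of dorsal minus ventral was -0.08 over the 42 genes and -0.02 over all probe sets. The largest estimate was that of Flrt2, and the 95% interval lay within 2-fold in either direction for all 42 genes and within 1.5-fold for 35.

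Flrt2, with the array values given above, had every ventral astrocyte array above every dorsal one. The difference was -0.67 (95% interval -0.99 to -0.35, 1.59-fold, adjusted p = 0.103 in limma), and without dorsal astrocyte array 3 it was -0.82 with an adjusted p of 0.040. Flrt1 also had separate arrays, at -0.31 (-0.54 to -0.08, adjusted p = 0.329). Flrt3 was at -0.15 (-0.51 to 0.22), and Lingo2 at 0.09 (-0.43 to 0.60), so that neither was resolved from 0.

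Sema3d, too, had all dorsal arrays below all ventral ones, with a difference of -0.48 (-0.73 to -0.22, adjusted p = 0.155). The other 11 semaphorins were between -0.18 for Sema3e and 0.23 for Sema6a. Sema6a, in which the regional p was the second lowest of the semaphorins, read 10.23, 10.23 and 9.79 in dorsal and 10.01, 9.96 and 9.58 in ventral astrocytes, with overlap (interval -0.07 to 0.53, adjusted p = 0.606). Sema6d was at 0.03 with an interval from -0.17 to 0.23. Plexins and Nrp1 had differences from -0.22 for Plxnb3 (-0.51 to 0.07, adjusted p = 0.610) to 0.18 for Plxna4 (-0.04 to 0.39, adjusted p = 0.578). Plxna4 had separate arrays, at 8.24, 8.57 and 8.28 dorsally and 8.22, 8.23 and 8.11 ventrally, but the lowest dorsal and the highest ventral array nearly met.

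Neo1 read 10.06, 9.88 and 10.11 in dorsal and 10.35, 10.47 and 10.23 in ventral astrocytes, with a difference of -0.33 (-0.54 to -0.12, adjusted p = 0.245). Dcc differed by -0.46 (-0.83 to -0.09, adjusted p = 0.364) and Slit2 by -0.47 (-0.86 to -0.08, adjusted p = 0.380). In both genes ventral array 3 lay within the dorsal range, while ventral arrays 1 and 2 were higher. Robo2 (0.23, -0.12 to 0.58) and Robo1 (0.13, -0.11 to 0.38) were not resolved from 0, nor was Rgma (0.11, -0.07 to 0.29). Dpysl4 read 6.53, 6.90 and 6.48 dorsally and 6.90, 6.95 and 6.99 ventrally, with a difference of -0.31 (-0.56 to -0.06, adjusted p = 0.368). Dpysl3 differed by -0.12 (-0.54 to 0.29), Ryk by -0.11 (-0.33 to 0.11) and Efnb3 by 0.06 (-0.35 to 0.47).

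Slitrk1 read 6.08, 5.75 and 5.97 in dorsal and 6.53, 6.33 and 6.42 in ventral astrocytes, without overlap (-0.49, interval -0.81 to -0.18, adjusted p = 0.242). Slitrk4 read 5.91, 6.52 and 6.42 dorsally and 7.11, 6.49 and 6.66 ventrally, with overlap (-0.47, -0.85 to -0.09, adjusted p = 0.368). Both lay near or under the array medians. In total 6 of the 42 genes had astrocyte arrays that did not overlap between the regions, 5 of them lower dorsally. Of all probe sets 12.5% did so in either direction and 7.23% with the dorsal arrays lower. Of the named ones the shares were 15.3% and 7.7%.

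Some marker sums of other cells differed with region in the astrocyte sort. The summed signal of the 7 precursor markers was 1633 to 1840 in dorsal and 2055 to 2314 in ventral astrocytes, and that of the 8 oligodendrocyte markers 4175 to 6191 and 6261 to 6369, each without overlap. That of the 7 neuron markers was 1398 to 1857 and 1630 to 2587, with the lowest ventral sum in array 3, as in Dcc and Slit2. With limma, 0 markers of these 3 lists passed in this comparison. The microglia sums (686 to 1179 dorsally, 703 to 1078 ventrally) and the endothelial sums (372 to 408 and 369 to 415) overlapped. Of the 2 measured ependymal markers, Dnah12 passed (adjusted p = 0.010), at 5.83, 6.05 and 6.27 in dorsal and 7.41, 7.55 and 7.67 in ventral astrocytes, and the summed signal of the pair was 273 to 444 dorsally and 515 to 527 ventrally, without overlap. Their part in the values of the guidance genes was not tested.

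**Figure D4:**
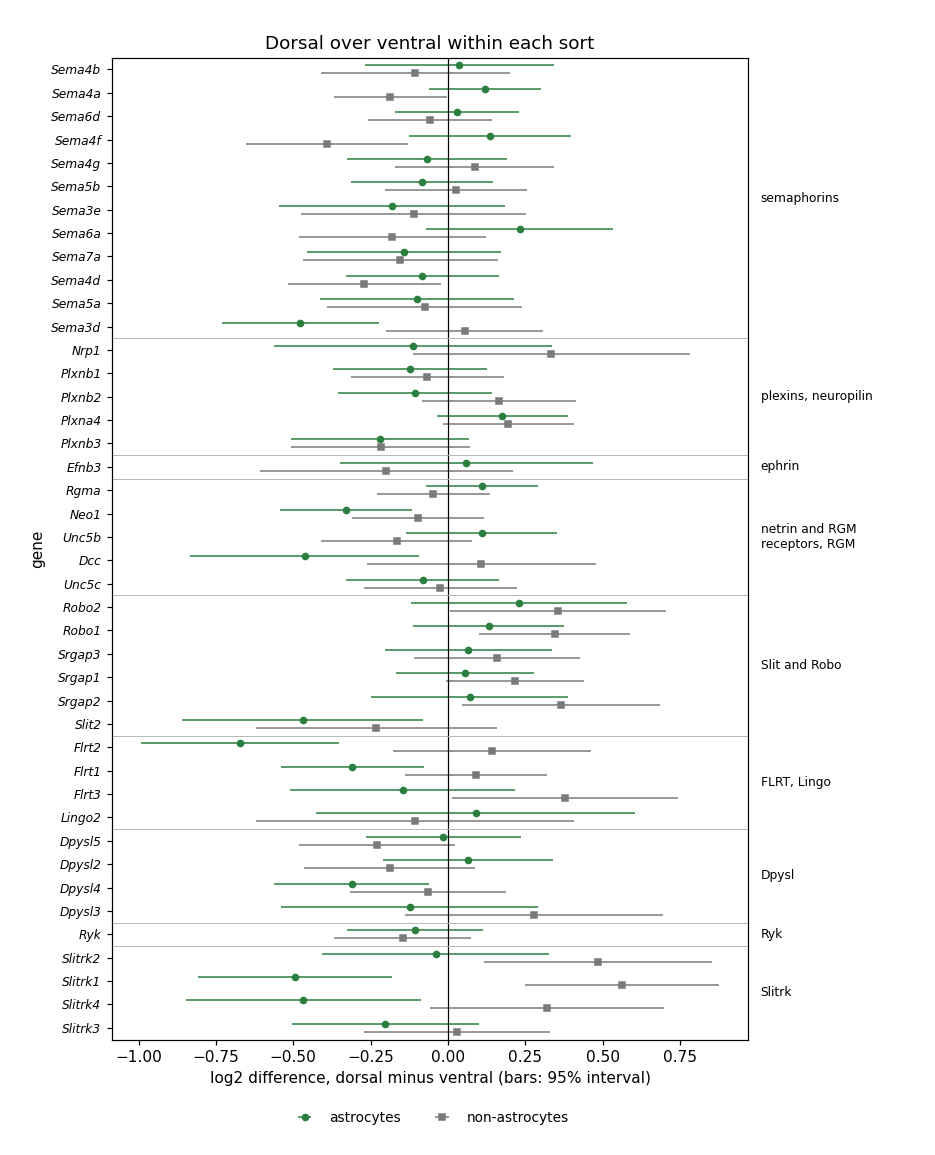
Points give the log2 difference of dorsal minus ventral for each gene, the Slitrk genes included, in astrocytes (circles) and in non-astrocytes (squares). Bars are 95% intervals of the limma fit before adjustment for multiple tests. The values for astrocytes run from -0.67 for Flrt2 to 0.23 for Sema6a, and 0 of 42 genes pass after adjustment in either sort.

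The same comparison within the non-astrocytes called 0 of 42 genes in limma as well, where 0.0492% of all probe sets passed. At an unadjusted p under 0.05 there were 9 genes (21.4%), against 5.25% of all probe sets and 606 of the 5119 named ones. Of the 9, 6 were higher dorsally, as were 2.5% of all and 6.09% of the named probe sets, and 3 lower, as were 2.74% and 5.74%. With the replicate number as a block, which pairs arrays of equal number, 6 genes were left at that p, 0 passed after adjustment, and the calls over all probe sets went from 14 to 0. Values below are without the block. Of these, 3 belonged to the Slit and Robo pathway. Robo1 read 8.59, 8.47 and 8.47 dorsally and 8.14, 8.18 and 8.18 ventrally, without overlap (0.35, 0.10 to 0.59, adjusted p = 0.596). Srgap2 was at 0.37 (0.05 to 0.68) and Robo2 at 0.36 (0.01 to 0.71), also higher dorsally. Slitrk1 (0.56, 0.25 to 0.88, adjusted p = 0.378), Slitrk2 (0.49, 0.12 to 0.85) and Flrt3 (0.38, 0.01 to 0.74) completed the dorsal side. The 3 lower dorsally were all class 4 semaphorins, Sema4f (-0.39, -0.65 to -0.13, adjusted p = 0.550), Sema4d (-0.27, -0.52 to -0.02) and Sema4a (-0.19, -0.37 to -0.0040).

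In this sort, too, some marker sums differed between the regions. The summed oligodendrocyte markers were 16437 to 19452 dorsally and 20271 to 22488 ventrally, and the precursor markers 6201 to 7052 and 5111 to 5673. Both were without overlap and in opposite directions. All 7 microglia markers were higher dorsally, with a median log2 difference of 0.43 and sums of 5106 to 5969 dorsally and 3645 to 5365 ventrally, which overlapped. With limma, 0 markers of these 3 lists passed between the regions of this sort. The 2 ependymal markers summed to 269 to 337 dorsally and 356 to 462 ventrally, without overlap, and 1 of them passed in limma, lower dorsally. Their part in the values of Sema4d or Robo1 was not tested. Non-astrocyte arrays did not overlap between regions in 14 of the 42 genes, against 3634 of the 28467 probe sets and 18.1% of the named ones.

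Whether a regional difference was larger in one sort was tested by the interaction, the regional difference in astrocytes minus that in non-astrocytes. In limma 0 of 42 genes passed, where 0.0632% of all probe sets did, and 10 genes (23.8%) had an unadjusted p under 0.05, against 7.23% of all probe sets and 12.2% of the named ones. Of the 10, 8 were below 0, as were 3.84% of all and 6.02% of the named probe sets at that p, and 2 above, as were 3.39% and 6.19%. The interaction shares its astrocyte arrays with the second comparison and is no separate support for it. The lowest p belonged to Slitrk1, which was lower dorsally in astrocytes and higher dorsally in non-astrocytes (-1.06, 95% interval -1.5 to -0.61, adjusted p = 0.174). Flrt2 followed at -0.81 (-1.27 to -0.36, adjusted p = 0.345), then Sema3d at -0.53 (-0.89 to -0.17, adjusted p = 0.472) and Slitrk4 at -0.79 (-1.32 to -0.25, adjusted p = 0.472). Flrt1 (-0.40), Flrt3 (-0.52), Dcc (-0.57) and Slitrk2 (-0.53) were also below 0, and Sema4f (0.53) and Sema4a (0.31) above it. For Plxnb3 the interaction was 0.00 (-0.41 to 0.41), and for Ryk 0.04 (-0.27 to 0.35).

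A further list held 67 symbols of guidance signalling, among them Eph receptors, myelin-associated inhibitors and kinases of the growth cone. The latrophilins were in it under both old and new symbols. Of the 67 symbols, 34 had a name in the authors' tables. The ephrin receptor gene Epha5 was the lone gene of these to pass between dorsal and ventral astrocytes, at 7.24 ± 0.19 dorsally and 8.98 ± 0.19 ventrally (SD, n = 3 each, difference -1.75, SE 0.14, adjusted p = 0.00020 in limma). It was also the lone gene to pass the interaction (-1.94, adjusted p = 0.0065). At an unadjusted p under 0.05 there were 10 of the 34 in astrocytes, beside the 15.0% of named probe sets given above. In the non-astrocytes 0 of the 34 passed, and 6 had an unadjusted p under 0.05, beside 5.25% of all probe sets and 606 of the 5119 named ones. Between the sorts, where an entry in the table of that comparison again required a difference, 20 were higher in astrocytes and 14 lower. The latrophilin genes Adgrl1, Adgrl2 and Adgrl3, whose products bind FLRT proteins, were higher in astrocytes by 0.69, 2.27 and 0.96, and the myelin inhibitor genes Mag, Rtn4 and Omg differed by -2.67, -0.81 and -0.57.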

How the data were processed

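The submitters' processing notes name the oligo package, the RMA method and limma, without versions or a genome build. The series table deposited by the authors holds log2 values per probe set. Their 2 comparison tables add gene names, a linear ratio (fold), a t statistic as score, and the p-value before and after adjustment, also deposited. Of 35556 probe sets, 476 repeats and 6613 of a leading run of consecutive identifiers without names were left out, leaving 28467. Names came from the authors' tables by matching the 12 values to 6 decimals, which succeeded for all 5158 and 39 entries, and symbols follow RefSeq GRCm38.p6. Where a gene had several probe sets, the brightest was used.

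The 4 group means were fitted with limma 3.58.1 in R 4.3.3 (lmFit, eBayes, 8 residual and 4.60 prior degrees of freedom, two-sided, Benjamini-Hochberg over all probe sets, threshold 0.05). Intervals are unadjusted 95% intervals of that fit. The fit was tested on simulated data. Tables and figures used Python 3.11.15, pandas 2.3.3, scipy 1.17.1 and matplotlib 3.10.9. The genes and lists were chosen with earlier results of these data known. Named by rule were the 2 genes of lowest p between dorsal and ventral astrocytes in each family, the 3 of largest sort difference, all genes of families of 4 or fewer, and called genes of the further list. Other genes, such as Sema4d, Sema6d and Unc5b, were named after their values were seen.

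Labels give equal replicate numbers without saying what they share. Deviations of same-numbered arrays correlated by 0.15 to 0.21 between dorsal and ventral non-astrocytes, against -0.14 to -0.04 for arrays of other numbers. Between dorsal and ventral astrocytes the correlations were weaker, at 0.04 to 0.14 against -0.10 to 0.03. Equal numbers went together in the non-astrocytes. In astrocytes the lowest value for equal numbers was close to the highest for other numbers. Deviations within a group sum to 0, so the 2 ranges are not independent of each other. Differences, intervals and p-values come from the fit without the block and leave this pairing out. Counts with the block stand beside the non-astrocyte counts and in the last section.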

Additional observations from a re-analysis of the deposited data

How the results depend on the processing

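The count of 0 genes called was recomputed under a block for the replicate number, array weights, inclusion of all distinct probe sets, a filter at the median signal, centring on array medians, an intensity trend, an adjusted p of 0.10, the probe set of lowest p per gene, fits on the 6 arrays compared (regional comparisons only), and without each array and each replicate number. Between dorsal and ventral astrocytes the count lay between 0 and 1 on leaving out arrays, the 1 being Flrt2 without dorsal astrocyte array 3, and it was 0 in every other setting listed. Between dorsal and ventral non-astrocytes and in the interaction it was 0 in all of them. The smallest adjusted p in astrocytes was 0.112 with the replicate block, 0.076 above the median signal, 0.205 with array weights and 0.370 on the 6 astrocyte arrays alone. Over all probe sets the calls in astrocytes numbered 97, but 108 with the block, 46 with all distinct probe sets, 35 with array weights and 27 on the 6 arrays. In non-astrocytes they numbered 14, but 0 with the block or all distinct probe sets and 43 with weights, and in the interaction 18, but 3 with all distinct probe sets and 12 with the block. The genes at an unadjusted p under 0.05 numbered 5 to 9 of 42 on leaving out arrays in astrocytes, 5 to 9 in non-astrocytes and 6 to 10 in the interaction. With the replicate block they numbered 9, 6 and 10, and the block changed no call among the 42 genes. In non-astrocytes they were 15 on the 6 arrays alone, against 9. Over 16 genes and these settings, 6 of 383 regional differences changed sign in astrocytes, in 4 genes, 2 of 383 in non-astrocytes, in 2 genes, and 21 of 367 in the interaction, in 5 genes, and none of these was called. Membership itself rests on the authors' table, which was filtered on the difference between sorts, so guidance genes alike in both sorts are missing. An astrocyte mean under the array medians limits the size of the fold in 10 genes.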
